A study of Homo sapiens with 2 samples.

Results

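The genes described are 10 apolipoprotein and lipid transfer genes, APOE, APOC1, APOA1, APOB, APOD, APOM, APOL1, APOL2, APOL6 and PLTP, taken by symbol from a deposited table of 37364 genes. The rule that names them uses no measured level. RNA came from D407, a human cell line that the labels call retinal pigment epithelium (RPE), the pigmented cell layer behind the photoreceptors. Of the 2 libraries, 1 was made from D407 cells given clusterin, an extracellular chaperone also known as apolipoprotein J, and 1 from control D407 cells. Both were grown in DMEM with fetal bovine serum, a medium that itself holds lipoproteins. Neither the dose nor the time of treatment is known from the sources used here. With 1 library per group no difference has a replicate check and no test between the groups was made.

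Apolipoproteins are the protein part of lipoproteins, the particles that carry cholesterol, triglyceride and phospholipid between cells. APOB is the structural protein of low density lipoprotein, APOA1 that of high density lipoprotein, and APOE is a ligand by which many particles bind receptors on cells. PLTP moves phospholipid between particles, and the APOL proteins are a separate family that acts largely inside cells or, for APOL1, also in blood. The RPE is known to make lipoproteins that hold APOB and APOE and to release them towards the choroid.

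The level of a gene is given as RPKM, reads scaled to the transcript's length and to the library total. Whole reads were recovered from the deposited values, with library totals of 33177098 reads for clusterin and 38237000 for control. For APOE, 1 RPKM stood for 39.1 reads with clusterin and 45.1 in the control, and every interval below is a 95% interval that covers counting error only. A mean of at least 1 RPKM over both libraries was taken as measured, which 35.4% of the genes in the table reached. Differences are log2((clusterin RPKM + 1)/(control RPKM + 1)) unless a ratio is named. Their median was -0.06 among the 13244 measured genes, and 70.2% of these lay below 0. No gene whose reads were recovered had fewer than 6 in all, and RPS18, which encodes a protein of every ribosome, was listed at 0. Genes at 0 are for this reason reported only as listed at 0. As the samples are bulk RNA, fewer cells making a transcript and less of it per cell cannot be told apart.

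Of the 10 members, 3 were measured. APOB and APOD were listed at 0 in both libraries, 5 members lay above 0 but under a mean of 1 RPKM, and APOL2, PLTP and APOM were the measured ones. A level of 0 in both libraries was given for 44.8% of all genes. Markers of cell types known to secrete lipoproteins, and of the RPE, were also counted. Of 11 hepatocyte markers, 10 were listed at 0, among them ALB and AFP, and HP, haptoglobin, had 3 reads in the clusterin and 8 in the control library. Of 13 RPE markers in the table, 7 were listed at 0, the visual cycle genes RPE65, LRAT and RLBP1 among them, and 3 were measured, MITF, STRA6 and BEST1. Of 9 macrophage markers, 5 were listed at 0, PTPRC among them, and CD68 alone was measured. Of 5 markers of the enterocyte, the lining cell of the small intestine, 3 were listed at 0, FABP1 and FABP2 among them, and only ALPI was measured. Of 6 simple epithelial markers, 4 were measured, all keratins, with KRT7 at 419.5 RPKM in the clusterin and 406.6 RPKM in the control library. EPCAM was listed at 0, and CDH1 had 4 reads with clusterin and 3 in the control.

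**Figure D1:**
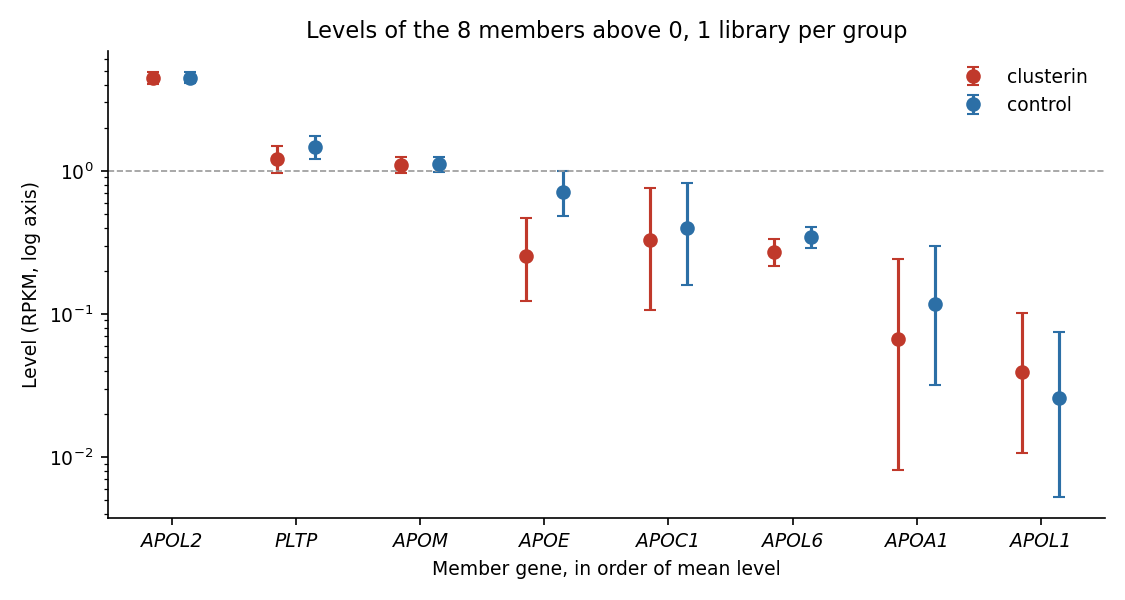
Levels of the 8 member genes above 0 in the clusterin and control libraries (RPKM, log axis), with 1 point per library and 95% exact Poisson intervals of the reads. The dashed line marks 1 RPKM, and APOL2, PLTP and APOM have both points above it.

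In order of mean level the members were APOL2, PLTP, APOM, APOE, APOC1, APOL6, APOA1 and APOL1. Only APOL2 was clear of its next neighbour, PLTP, in both libraries by the counting intervals. APOM and APOE were apart in the clusterin library, while their intervals overlapped in the control library. For each other neighbouring pair in that order the intervals overlapped in both libraries. The place of APOM in this order is uncertain, because the transcript length behind its level is longer than the gene, as described with APOM.

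RefSeq windows before the transcription start were at hand for 4 of the 10 members, PLTP, APOM, APOE and APOC1. The windows of APOM and APOC1 lie wholly inside the gene spans given below. Each of these thus precedes a start downstream of the gene's outermost one. They are printed because CpG content before the start differed between the measured genes of this table and those listed at 0. Each line below gives the 250 bases before 1 start of the gene on GRCh38.p14, 5′ to 3′ on the gene's strand, with every CpG in capitals.
PLTP, chr20:45912156-45912405, - strand: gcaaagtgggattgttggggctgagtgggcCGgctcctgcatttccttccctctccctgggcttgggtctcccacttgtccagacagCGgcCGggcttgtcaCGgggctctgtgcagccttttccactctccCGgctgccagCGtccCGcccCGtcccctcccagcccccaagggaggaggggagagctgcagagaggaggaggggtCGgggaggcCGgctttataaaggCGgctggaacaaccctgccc
APOM, chr6:31655644-31655893, + strand: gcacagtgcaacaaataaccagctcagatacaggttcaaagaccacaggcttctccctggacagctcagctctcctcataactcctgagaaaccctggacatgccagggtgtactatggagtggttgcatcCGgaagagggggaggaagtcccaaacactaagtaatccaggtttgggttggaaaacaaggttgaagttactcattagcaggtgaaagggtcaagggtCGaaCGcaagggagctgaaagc
APOE, chr19:44905546-44905795, + strand: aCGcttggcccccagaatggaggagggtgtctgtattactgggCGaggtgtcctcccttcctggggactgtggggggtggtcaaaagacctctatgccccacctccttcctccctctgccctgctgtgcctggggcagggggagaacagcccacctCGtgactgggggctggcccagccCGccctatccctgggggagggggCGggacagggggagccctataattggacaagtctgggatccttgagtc
APOC1, chr19:44914422-44914671, + strand: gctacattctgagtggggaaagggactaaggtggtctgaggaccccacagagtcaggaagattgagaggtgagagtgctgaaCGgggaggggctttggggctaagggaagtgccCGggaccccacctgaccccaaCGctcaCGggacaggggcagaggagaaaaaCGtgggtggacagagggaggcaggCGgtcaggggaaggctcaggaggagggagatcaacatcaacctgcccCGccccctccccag

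The windows held 11 CpGs for PLTP, 3 for APOM, 5 for APOE and 7 for APOC1. Over 11659 windows of measured genes the median was 21, and over 5237 windows of genes listed at 0 it was 5. All 4 windows were thus below the median of measured genes, including those of PLTP and APOM, which were measured themselves. APOE has a further pair of starts in the table, with 9 and 11 CpGs, and PLTP a further one with 17. The letters TATAAA, searched on both strands, occurred only in the PLTP window printed, where the copies on the gene strand (-28 to -23 from the start) and on the other strand (-30 to -25) overlap. They occurred in 10.7% of 35116 windows and in 5.44% of those of measured genes. GGGCGG, the core of a GC box, was found in the printed windows of PLTP, APOE and APOC1 and not in that of APOM, on either strand, against 42.6% of all windows and 65% of those of measured genes. In the APOE window it lay at -51 to -46 on the gene strand and at -72 to -67 on the other.

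APOE (chromosome 19, 44905749 to 44909395, GRCh38, gene strand +) was the member furthest apart between the libraries. It stood at 0.255 RPKM in the clusterin library and 0.709 RPKM in the control library. These levels rested on 10 reads with clusterin and 32 in the control, over a transcript length of 1180 bases. The RPKM ratio was 0.360 (0.158 to 0.751), a log2 RPKM ratio of -1.47, so the clusterin library lay 2.78-fold lower. APOE was the only 1 of the 8 members above 0 whose interval left out a ratio of 1. Over all 19507 genes with recovered reads, 19.3% had an interval below 1 and 3.85% one above it, so such an interval is common in this pair of libraries. In the authors' deposited table, APOE had a q-value of 0.0308, and 10.4% of the 20642 genes above 0 were lower with a q-value under 0.05 and 1.63% higher. Those q-values take account of read sampling only.

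The same comparison was made with genes of similar depth, a window chosen after the value of APOE had been seen. Among 3302 genes with 21 to 84 reads over both libraries and above 0 in each, 8.78% had an RPKM ratio of at most 0.5 and 2.82% one of at least 2. A ratio at or below that of APOE was found for 96 of these genes, or 2.91%. Of the same genes, 8.24% had an interval below 1 and 3.12% one above it. Their log2 RPKM ratios ran from -1.21 at the 5th percentile to 0.83 at the 95th, with a median of -0.14. On the log2(RPKM + 1) scale, which understates the change of low genes, APOE stood at -0.45.

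**Figure D2:**
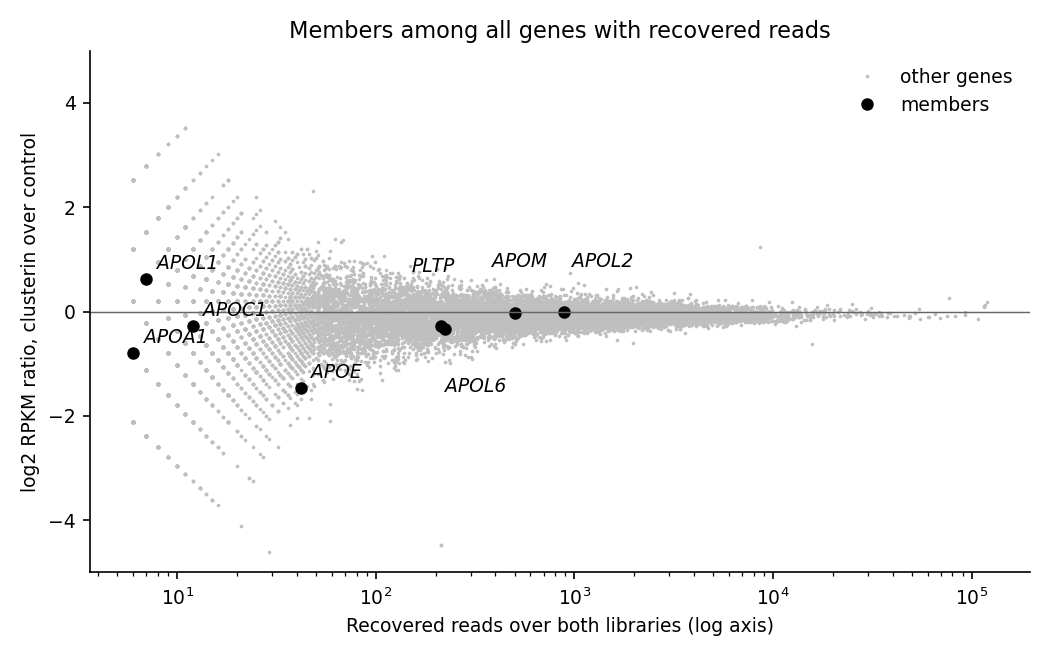
Log2 RPKM ratio of clusterin over control (vertical) against the reads recovered over both libraries (horizontal, log axis), with 1 point per gene and the 8 members above 0 in black. APOE, at 42 reads and -1.47, lies near the lower edge of genes of its depth, and the other 7 members lie inside the cloud.

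APOC1 (chromosome 19, 44914325 to 44919349, gene strand +), a small apolipoprotein that lies just beyond APOE and is known to inhibit lipoprotein uptake and CETP, was too low for a difference to be detectable at this depth. It stood at 0.327 RPKM with clusterin and 0.397 RPKM in the control, from 5 and 7 reads. Its RPKM ratio was 0.823 (0.206 to 3.01). That interval holds both 1 and the ratio of APOE. TOMM40, a mitochondrial import channel gene just before APOE, stood at 36.6 RPKM with clusterin and 37.4 RPKM in the control, a ratio of 0.979 (0.925 to 1.04). CLPTM1, at the far side of the cluster, had 1086 reads with clusterin and 1209 in the control, a ratio of 1.04 (0.953 to 1.12). The lipoprotein genes between, APOC4 and APOC2, and the pseudogene APOC1P1 were listed at 0.

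APOA1 (chromosome 11, 116835751 to 116837647, gene strand -) was at the edge of detection. It stood at 0.0672 RPKM with clusterin and 0.117 RPKM in the control, from 2 and 4 reads, and its ratio of 0.576 had an interval of 0.0521 to 4.02. The total of 6 reads is the lowest of all genes whose reads were recovered. Its antisense transcript APOA1-AS, listed by its Ensembl identifier, had 4 reads in each library. The other apolipoprotein genes of the cluster, APOC3, APOA4 and APOA5, were listed at 0. The flanking genes ZNF259, a zinc finger gene, and SIK3, a salt-inducible kinase, were measured, at 13.1 and 1.72 RPKM with clusterin and 11.8 and 1.88 RPKM in the control. The sources used here do not say whether counting used strand, so reads of APOA1 and of a transcript on the other strand cannot be told apart.

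APOB (chromosome 2, 20999218 to 21044073, gene strand -) and APOD (chromosome 3, 195568702 to 195584205, gene strand -), a lipocalin that carries small hydrophobic molecules, were listed at 0 in both libraries. MTTP, the microsomal transfer protein that loads lipid onto APOB, was near 0 as well, with 3 reads in the clusterin and 5 in the control library, and TM6SF2, which acts in the same step in liver, was listed at 0. General secretory genes of the same list were measured, P4HB, the partner subunit of MTTP and a protein disulfide isomerase, at 141.1 RPKM with clusterin and 136.8 RPKM in the control, and the cargo receptor SURF4 at 52.0 RPKM with clusterin and 50.1 RPKM in the control. In the deposited positions C2orf43 overlaps the end of APOB on the same strand over 2006 bases. The deposited 3′ end of APOB lies 2211 bases beyond that of RefSeq, so an overlap at that end lies outside RefSeq APOB. C2orf43 was measured at 3.67 RPKM with clusterin and 3.96 RPKM in the control.

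**Figure D3:**
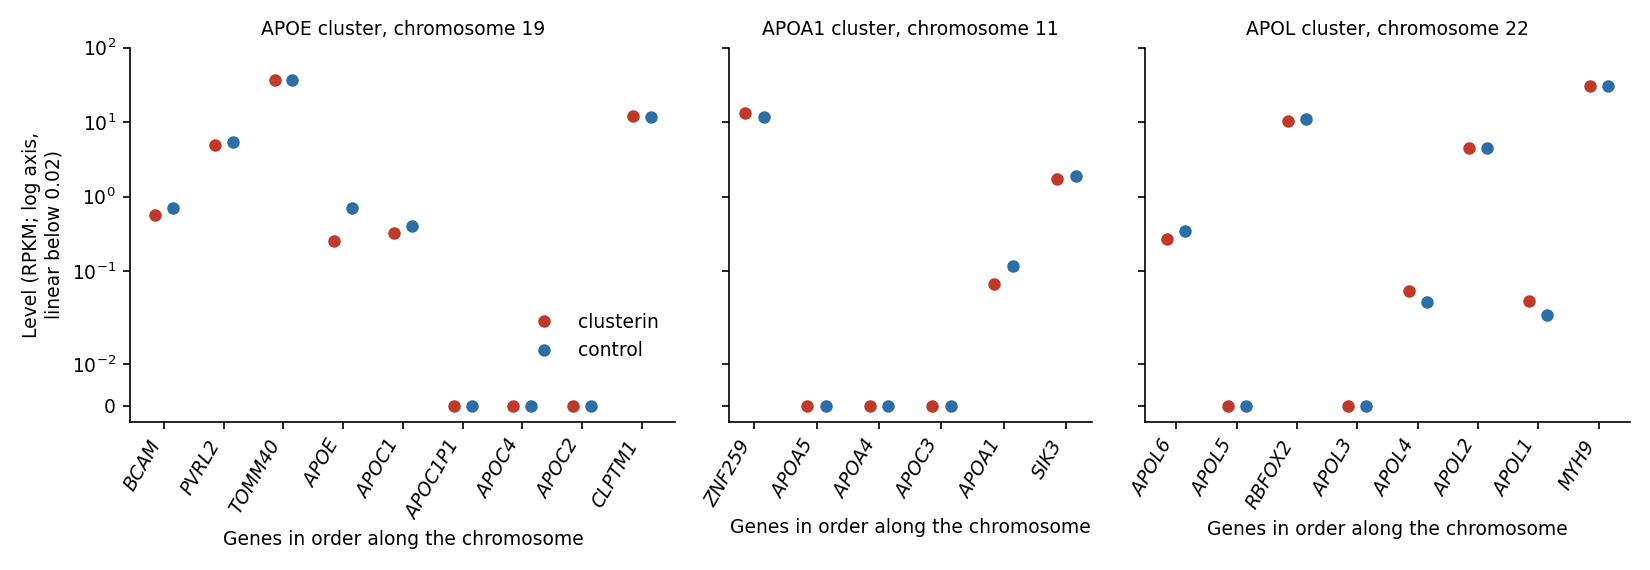
Levels in the clusterin and control libraries (RPKM, log axis, linear below 0.02) of genes in their order along the APOE, APOA1 and APOL clusters, not all genes of these regions, with 1 point per library. In the APOE and APOA1 clusters the apolipoprotein genes lie below 1 RPKM or at 0 beside flanking genes that, BCAM apart, lie above 1 RPKM, and in the APOL cluster APOL2 alone of 6 APOL genes lies above it.

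APOM (chromosome 6, 31652410 to 31658210, gene strand +), the lipocalin that carries sphingosine 1-phosphate on high density lipoprotein, was nearly equal in the libraries. It stood at 1.10 RPKM with clusterin and 1.12 RPKM in the control, from 232 and 272 reads. Its RPKM ratio was 0.983 (0.821 to 1.18). The transcript length that its deposited values imply, 6370 bases, is longer than the gene's own span of 5801 bases on the chromosome. The same held for 78 of 92 other genes with symbols within 1 Mb of APOM (84.8%), against 10.4% of 681 genes on the rest of chromosome 6 and 1.78% of 13351 genes elsewhere. Dividing reads by a longer length gives a lower RPKM, so the level of APOM is not comparable with those of the other members, while the ratio between the libraries does not depend on it. Why the implied lengths are long there was not tested. BAG6, a chaperone gene on the other strand, covers all 5801 bases of APOM in the table, so reads of the pair could be shared. It had 544 reads with clusterin and 715 in the control. The position of BAG6 was not checked against RefSeq, so the extent of this overlap is uncertain.

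**Figure D4:**
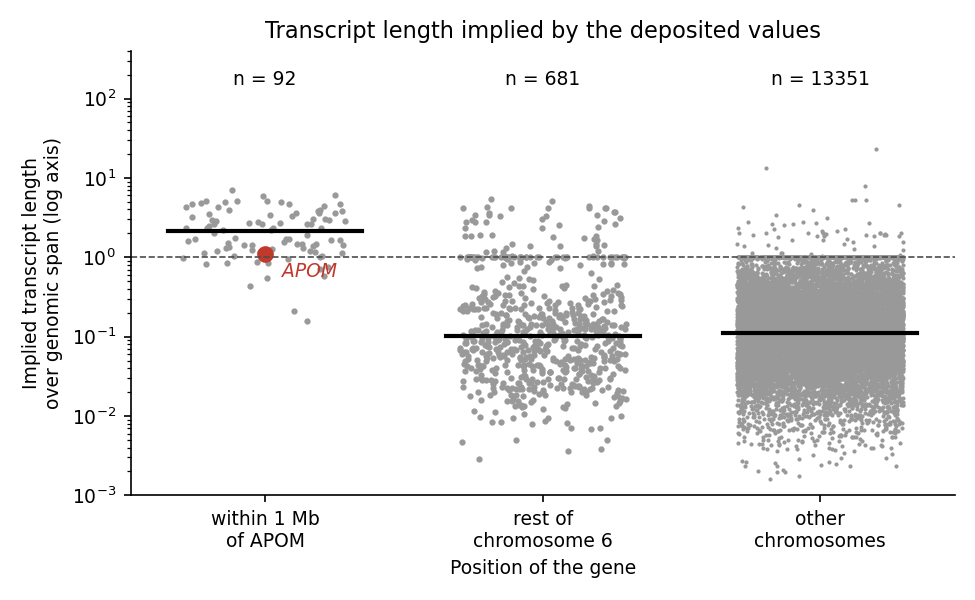
Transcript length implied by the deposited values divided by the gene's span on the chromosome (log axis), for genes within 1 Mb of APOM, on the rest of chromosome 6 and on other chromosomes, with 1 point per gene and the median as a bar. Lengths above the dashed line at 1 are longer than the gene, as for APOM and for 84.8% of its neighbours.

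PLTP (chromosome 20, 45898620 to 45912364, gene strand -) was the measured member with the largest difference. It stood at 1.21 RPKM with clusterin and 1.46 RPKM in the control, from 89 and 124 reads. Its ratio of 0.827 (0.623 to 1.09) had an interval that held 1, and its difference on the log2(RPKM + 1) scale was -0.16. PLTP overlaps CTSA, the lysosomal carboxypeptidase cathepsin A, on the other strand by 201 bases, and CTSA stood far higher, at 18.2 RPKM with clusterin and 18.3 RPKM in the control.

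The APOL genes on chromosome 22 ranged from the highest of the 10 members to the lowest above 0. APOL2 (36226209 to 36239954, gene strand -), a member of the family that stays inside cells, stood at 4.43 RPKM with clusterin and 4.48 RPKM in the control, from 407 and 474 reads. Its RPKM ratio was 0.990 (0.865 to 1.13). Its mean was higher than that of 62.5% of the 20642 genes above 0. APOL1 (36253071 to 36267531, gene strand +), the secreted trypanosome-killing factor of human serum, lies next to it on the other strand and stood at 0.0395 and 0.0257 RPKM in the clusterin and control libraries, from 4 and 3 reads. The ratio of 1.54 had an interval of 0.260 to 10.5, so no difference was detectable at this depth. APOL6 (35648360 to 35668409, gene strand +), whose overexpression is known to promote cell death, stood at 0.271 RPKM with clusterin and 0.343 RPKM in the control. Its long transcript of 10139 bases gave 91 and 133 reads at that low level, and its ratio of 0.789 had an interval of 0.597 to 1.04. APOL4 had 6 reads with clusterin and 5 in the control, and APOL3 and APOL5 were listed at 0. The APOL genes share sequence, so reads may have been split between copies.

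Interferons and inflammatory cytokines are known to induce several APOL genes. Of 12 genes of that response, 10 were measured, 5 above 0 and 5 below 0 on the log2(RPKM + 1) scale, with a median of 0.00, which became 0.06 with the control rescaled. The highest were OAS1, an antiviral synthetase, at 28.8 RPKM with clusterin and 28.5 RPKM in the control, and ISG15, a ubiquitin-like modifier, at 11.3 RPKM with clusterin and 10.5 RPKM in the control. GBP2, a guanylate-binding protein, was the lowest in difference at -0.35, with 92 reads with clusterin and 163 in the control, and TRIM21, an antibody receptor and ubiquitin ligase, the highest in difference at 0.22.

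**Figure D5:**
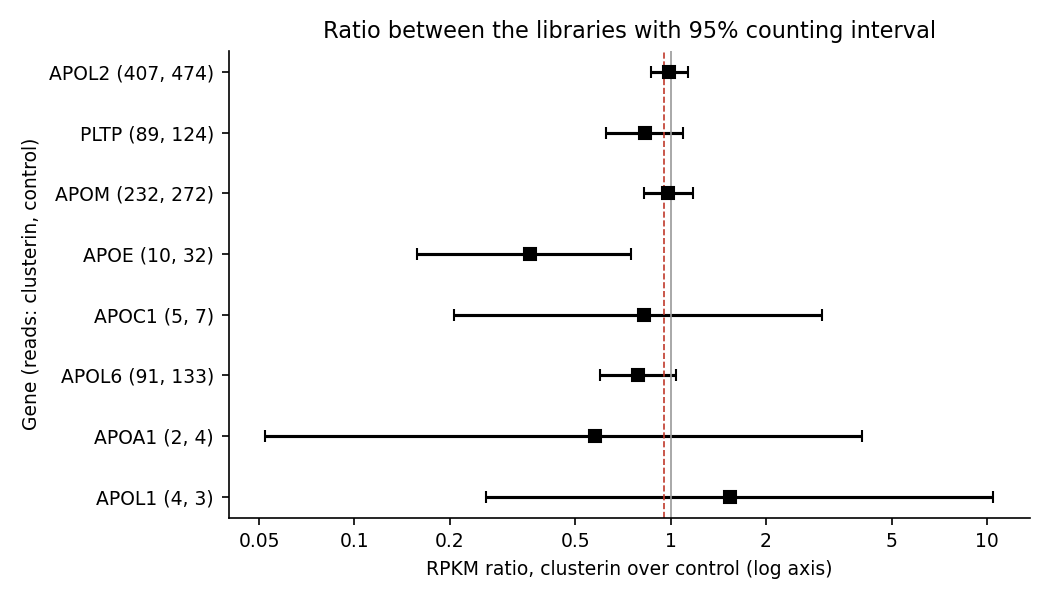
RPKM ratio of clusterin over control (log axis) for the 8 members above 0, with the recovered reads of each library beside the gene's name and 95% exact Clopper-Pearson counting intervals. The red dashed line is the median ratio of all measured genes, and only the interval of APOE lies wholly below 1.

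On the log2(RPKM + 1) scale, none of the 3 measured members was 2-fold apart, where 0.106% of the 13244 measured genes were at least 2-fold higher and 0.113% at least 2-fold lower with clusterin. On that scale none was 1.2-fold apart either, against 2.26% of genes higher and 5.61% lower, while by plain RPKM PLTP lay 1.21-fold lower with clusterin. The median difference of the 3 was -0.01, or 0.02 with the control rescaled so that the median log2 ratio of all measured genes was 0, beside -0.06 over all measured genes before rescaling. Of the 8 members above 0 RPKM, 7 had a difference below 0 and APOL1 one above it, with a median of -0.07. Among all measured genes 70.2% lay below 0, a share not computed for genes under a mean of 1 RPKM. After the rescaling APOM and APOL2 lay above 0 too.

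Among the other apolipoproteins, 14 of 18 were listed at 0, among them APOA2, APOH and LPA. The measured ones were CLU, APOO and APOOL. CLU, the cells' own clusterin transcript, stood at 33.8 RPKM with clusterin and 35.9 RPKM in the control. APOO and APOOL, which are subunits of the mitochondrial MICOS complex, stood at 9.74 and 1.70 RPKM with clusterin and 9.68 and 1.76 RPKM in the control.

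Receptors for apolipoproteins were more often measured than the ligands, 16 of 20 in all, 4 above 0 and 12 below 0, with a median of -0.04 and none 1.2-fold apart on the log2(RPKM + 1) scale. With the control rescaled, 6 lay below 0 and the median was 0.01. SCARB1, the receptor for high density lipoprotein, was the highest at 45.6 RPKM with clusterin and 46.1 RPKM in the control. LRP8, a receptor that binds APOE and clusterin, stood at 7.82 RPKM with clusterin and 7.65 RPKM in the control. LRP5, a coreceptor for Wnt ligands, was the highest in difference, at 0.11.

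Of 13 measured lipid transfer proteins, nearly all intracellular, 12 lay below 0, as did 70.2% of all measured genes, with a median of -0.12 beside -0.06 over all measured genes. With the control rescaled, 10 lay below 0 and the median was -0.06. On the log2(RPKM + 1) scale STARD4, a sterol carrier, was the 1 gene at least 1.2-fold lower, beside 5.61% of all measured genes. It had 267 reads with clusterin and 425 in the control, with an RPKM ratio of 0.724 (0.619 to 0.846). Of the 19507 genes with recovered reads, 19.3% had an interval below 1. By plain RPKM the phosphatidylinositol carriers PITPNA, at a ratio of 0.823, and PITPNB, at 0.817 and named after its value was seen, lay past 1.2-fold as well. STARD7, a phosphatidylcholine carrier of mitochondria, stood at 25.1 RPKM with clusterin and 28.3 RPKM in the control. NPC2, the lysosomal sterol carrier, stood at 25.1 RPKM with clusterin and 26.8 RPKM in the control, and PITPNA at 11.9 RPKM with clusterin and 14.4 RPKM in the control. Of the secreted relatives of PLTP, CETP had 1 read with clusterin and 6 in the control, and LBP, BPI, BPIFB1 and BPIFB2 were listed at 0.

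A list of 17 lipases, lipoprotein enzymes and related genes, some of them intracellular, had 7 measured. Of the 7, 3 lay above 0 and 4 below 0, with a median of -0.03, which became 0.04 with the control rescaled. LPL, lipoprotein lipase, was near 0, with 7 reads with clusterin and 3 in the control. LCAT, which esterifies cholesterol on high density lipoprotein with APOA1 as its activator, stood at 1.80 RPKM with clusterin and 1.58 RPKM in the control, from 81 and 82 reads. ANGPTL4, a secreted inhibitor of lipoprotein lipase, was the 1 gene at least 1.2-fold higher on the log2(RPKM + 1) scale, beside 2.26% of all measured genes. It stood at 12.8 and 10.3 RPKM in the clusterin and control libraries, with a ratio of 1.25 (1.13 to 1.38). Of the 19507 genes with recovered reads, 3.85% had an interval above 1. LIPC and LIPG, the hepatic and endothelial lipases, and PON1, an enzyme of high density lipoprotein, were listed at 0, while the intracellular paraoxonase PON2 stood at 88.3 RPKM with clusterin and 90.0 RPKM in the control.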

How the data were processed

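RNA from 2 libraries of D407 cells was sequenced, and groups came from the labels. Per the labels' protocols, poly(A) RNA was selected on oligo(dT) beads and primed with random hexamers. Bowtie, TopHat and Cuffdiff with build hg19 were used, per the submitters' processing notes, while the positions of these genes in the table lay within 265 bp of RefSeq GRCh38, apart from the 3′ end of APOB. For each gene the table the authors deposited holds an RPKM level per library and, comparing them, the log2 fold change with its p-value and q-value. The file headers name no unit for the levels. RPKM was read from the values, since 487 of 529 small RNA genes gave whole reads within 0.02 in both libraries at 1 fixed total each. FPKM cannot be told apart from it, because reads and read pairs look alike.

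For other genes, the transcript length was sought at which both levels were whole reads, the length was whole, and the Audic-Claverie p of the reads matched the deposited p-value within 2%. Reads were recovered for 19507 of 20642 genes above 0 (94.5%), among them all 8 members above 0. For APOM and APOL2, 3 and 4 lengths matched the p, and the best match was in both the only whole length. The recovery was tested on simulated data. A deposited p and q of 0 at genes with no reads was not taken as a call. Ratios have exact Clopper-Pearson 95% intervals and levels exact Poisson intervals. Both cover counting error only, since each group has 1 library. Reads that carry no molecular identifier can copy 1 molecule, so even the counting error may be understated.

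The naming rule gives every member, and of each related list up to 4 measured genes with the highest mean and the most extreme differences. Other genes named, such as LRP8, LCAT, MTTP and CETP, were chosen after their values were seen. A few genes this rule takes from the receptor list are not analysed one by one here. Members and lists were chosen with earlier results of these data known. Sequences are from RefSeq. The settings were computed with Python 3.11.15, pandas 2.3.3 and scipy 1.17.1. Other pseudocounts, filters and scalings were tried.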

Additional observations from a re-analysis of the deposited data

How the results depend on the processing

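The count of members 2-fold apart with a pseudocount of 1 was 0, and it was also 0 with a pseudocount of 0.1, without the filter on low values, or at 1.2-fold, 1 change at a time. It was 1, APOE, without the filter and with a pseudocount of 0.1, a setting chosen after seeing the data. Of 24 values of single members under 2 other pseudocounts and 1 rescaling, 20 stayed inside the member's counting interval as converted to the log2(RPKM + 1) scale, which is narrower for low genes than that of the ratio, and 4 moved out of it. APOE went to -1.19 with a pseudocount of 0.1 and -0.12 with 5, and APOA1 and APOL6 to -0.37 and -0.26 with 0.1. Setting the control so that the median log2 ratio was 0 gave APOM 0.02, APOL2 0.04 and a median of 0.02 over the 3 measured members, so the sign of these small differences depends on the scaling. No member had a mean of at least 5 RPKM, so that filter gave no median. The same 3 members were measured at a mean of 0.5 RPKM or at 1 RPKM in both libraries. No paired analysis was possible because each group has 1 library. Depth limits APOA1, APOL1 and APOC1, with at most 12 reads each.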

Other observations

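LXR is a sterol-sensing nuclear receptor that is known to drive APOE in macrophages and fat cells. Of 8 efflux and LXR genes listed, 4 were measured, ABCA7, NR1H2, NR1H3 and RXRA, 2 above 0 and 2 below 0 in difference, and with the control rescaled 1 lay below 0 and the median was 0.06. The values of 4 other known LXR targets follow, which were picked after their values were seen. Of these, MYLIP, ABCA1 and ABCG1 were under a mean of 1 RPKM. They are not all of its known targets, since PLTP, APOC1 and LPL, described above, are others. Whether LXR bears on APOE or on any of these values was not tested. MYLIP, a ubiquitin ligase, stood at 0.363 RPKM with clusterin and 0.792 RPKM in the control, from 37 and 93 reads, a ratio of 0.459 (0.304 to 0.678). ABCA1, the cholesterol exporter that loads APOA1 and APOE, had 9 reads with clusterin and 16 in the control, a ratio of 0.648 (0.253 to 1.56). ABCG1, the exporter to high density lipoprotein, had 22 reads with clusterin and 13 in the control, a ratio of 1.95 (0.940 to 4.21). LPCAT3, a phospholipid-remodelling enzyme, stood at 7.10 RPKM with clusterin and 8.10 RPKM in the control, a ratio of 0.877 (0.783 to 0.982). An interval below 1, as for MYLIP and LPCAT3, was found for 19.3% of the 19507 genes with recovered reads, and one above it for 3.85%. The receptor genes NR1H2 and NR1H3 stood at 21.5 and 5.70 RPKM with clusterin and 21.8 and 5.67 RPKM in the control. Their partner RXRB was listed at 0, as was RPS18, so this 0 is not read as absence of the transcript.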
